A study of Homo sapiens with 4 samples.

Results

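The open chromatin of the TMPRSS2 locus on human chromosome 21 was described in LNCaP cells, an androgen-sensitive human prostate cancer line, given GSK2879552 or vehicle. The locus comprised every listed region whose summit lay between positions 42780000 and 42960000 of hg19, a window of 180 kb. It holds TMPRSS2, on the minus strand from 42836478 to 42880085, and its upstream enhancers about 13 kb from the start site. The window contained 22 of the 163735 regions of the GSK2879552 list and 25 of the 194551 regions of the vehicle list. Distances below are from the start site at 42880085 to the summit, the position with most sequenced tags in a region.

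Accessibility was measured by ATAC-seq, which reads where the Tn5 transposase can cut and tag DNA. The labels give 50 µM GSK2879552 for 4 hours in medium with 5% CSS, and they also give 10% fetal serum for maintenance. The same text stands on all 4 samples, so the treated and the vehicle cells were told apart by the agent label, and the solvent of the vehicle is not named in it. Each condition had 2 sequencing lanes, labelled as technical replicates, and 1 deposited peak list, so there was 1 library per condition and no replicate check. Markers of the line other than TMPRSS2 itself were not analysed here. All differences below are between these libraries, with no test between conditions, and the exact 95% intervals cover counting error only.

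TMPRSS2 encodes a transmembrane serine protease of luminal prostate cells. It is a classical target of the androgen receptor, which acts through enhancers upstream of the gene, and in many prostate tumours its androgen-responsive promoter is fused to ETS family genes such as ERG. GSK2879552 inhibits LSD1 (KDM1A), a demethylase that removes methyl marks from histone tails and is also known as a cofactor of the androgen receptor. In the RefSeq gene order, the protein-coding neighbours are MX1, an interferon-induced antiviral GTPase, beyond the 3′ end, and RIPK4, a kinase of epithelial differentiation, beyond the promoter side.

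Tags at each summit were recovered as whole numbers from the deposited fold and −log10 p. The background expected at any position genome-wide was 2.72 tags in the GSK2879552 list and 2.31 tags in the vehicle list. Tag ratios of GSK2879552 to vehicle were divided by the quotient of these backgrounds, 1.18, and are called scaled. The libraries' total tags are not given in those lists or labels. Comparisons with the rest of the series use the 161535 GSK2879552 and 191905 vehicle regions on chromosomes 1 to 22, X and Y.

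The open region with most tags in the locus was the TMPRSS2 promoter, in both lists. It had 70 tags at the summit with GSK2879552 (54.6 to 88.4) and 83 with vehicle (66.1 to 103). The GSK2879552 region spanned 42879783 to 42880536 and the vehicle region 42879724 to 42880537, so that both covered the start site of the locus definition. The summit lay at that position itself with GSK2879552 and 87 bp upstream of it with vehicle. The scaled ratio was 0.717 (0.514 to 0.998), an interval just below 1. Without scaling the ratio was 0.843 (0.605 to 1.17), and the interval included 1. The scaled interval also held 0.683, the scaled ratio of summed tags over all 110134 region pairs of the series. Bulk chromatin does not separate the share of cells with an open promoter from its openness in each cell. What lay behind the ratio was not tested.

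A second region lay inside the gene, 0.9 kb from the start site. It was of similar width to the promoter region, 864 bp with GSK2879552 and 796 bp with vehicle, and it had 45 and 56 tags in these libraries. Its scaled ratio was 0.684 (0.451 to 1.03). The promoter and this region stood on the highest background of the locus, 10.50 and 10.49 tags with GSK2879552 and 12.48 and 12.51 tags with vehicle. Tags were therefore densest around the start of the gene in both libraries. No region was listed in either library between 1 and 10 kb upstream of the start site.

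**Figure D1:**
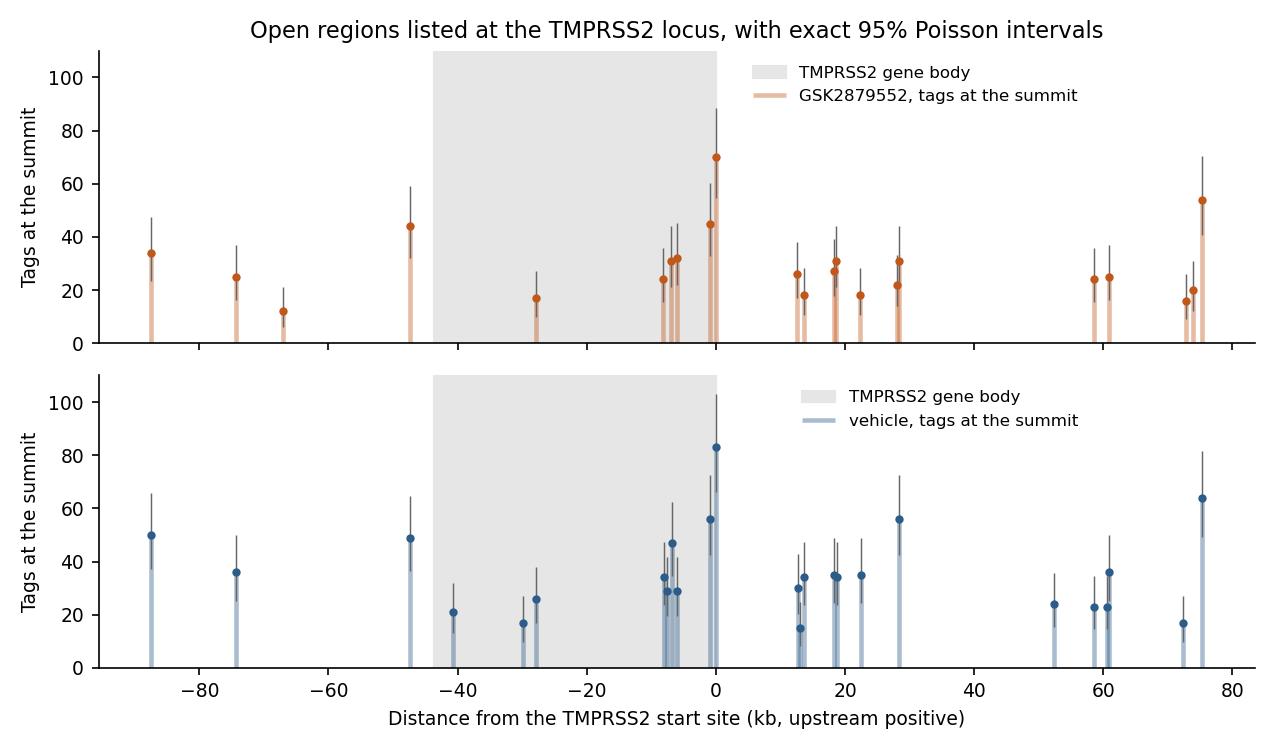
Tags at the summit of each listed region (vertical axis) by distance from the TMPRSS2 start site in kb (horizontal axis, upstream positive), GSK2879552 above and vehicle below, with exact 95% Poisson intervals and the gene body in grey. The promoter at 0 kb is the highest point of both libraries, at 70 and 83 tags, and the region 75.3 kb upstream follows with 54 and 64 tags.

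The upstream enhancer interval, 10 to 16 kb from the start site, held 2 regions with GSK2879552 and 3 with vehicle. At 12.6 kb, the regions 42892592 to 42892848 (GSK2879552) and 42892593 to 42892860 (vehicle) nearly coincided, with 26 and 30 tags. The scaled ratio there was 0.737 (0.419 to 1.29). At 13.7 kb, GSK2879552 cells had 18 tags (10.7 to 28.4) in the region 42893535 to 42893817. Vehicle cells had 34 tags (23.5 to 47.5) in the region 42893576 to 42893835, with a summit only 2 bp away. The scaled ratio of 0.450 (0.239 to 0.820) was the lower of both enhancer pairs and had an interval below 1.

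These enhancer regions could not be told apart from each other by their ratios, since each interval included the other's value. The interval at 13.7 kb also included 0.683, the scaled ratio of summed tags over all 110134 region pairs of the series. Over both pairs together, 44 GSK2879552 tags against 64 vehicle tags gave a scaled ratio of 0.585 (0.389 to 0.872). Without scaling it was 0.688 (0.457 to 1.03). Between them, at 13.0 kb, a narrow region from 42893000 to 42893153 was listed with vehicle only, at 15 tags over a background of 3.83.

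Farther upstream, from 18 to 29 kb, the GSK2879552 library had 5 regions and the vehicle library 4. A close pair of regions at 18.3 and 18.7 kb had 27 and 31 tags with GSK2879552 and 35 and 34 tags with vehicle. Their scaled ratios were 0.656 (0.382 to 1.12) and 0.776 (0.461 to 1.30). At 22.4 kb, the region 42902407 to 42902585 had 18 tags with GSK2879552, against 35 tags at 42902419 to 42902659 with vehicle. This was the lowest scaled ratio of the locus, 0.437 (0.233 to 0.794). Its interval lay below 1 and still held the all-pairs value of 0.683.

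At 28.4 kb the shape of the open region differed between the lists. GSK2879552 cells had 2 regions of 203 and 314 bp, 42908149 to 42908351 and 42908408 to 42908721, with a gap of 56 bp and with 22 and 31 tags at their summits. In vehicle cells the same stretch was listed as 1 region of 597 bp, from 42908127 to 42908723, with 56 tags (42.3 to 72.7) at its summit. The stronger of them against the vehicle summit gave a scaled ratio of 0.471 (0.293 to 0.743), an interval that held the all-pairs value of 0.683. Because this stretch is split in 1 list, it is not counted among the pairs below. On chromosomes 1 to 22, X and Y, 118082 vehicle regions overlapped a GSK2879552 region, and 110134 of them were in such pairs. The others were split or merged between the lists, so such shapes also occur elsewhere.

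**Figure D2:**
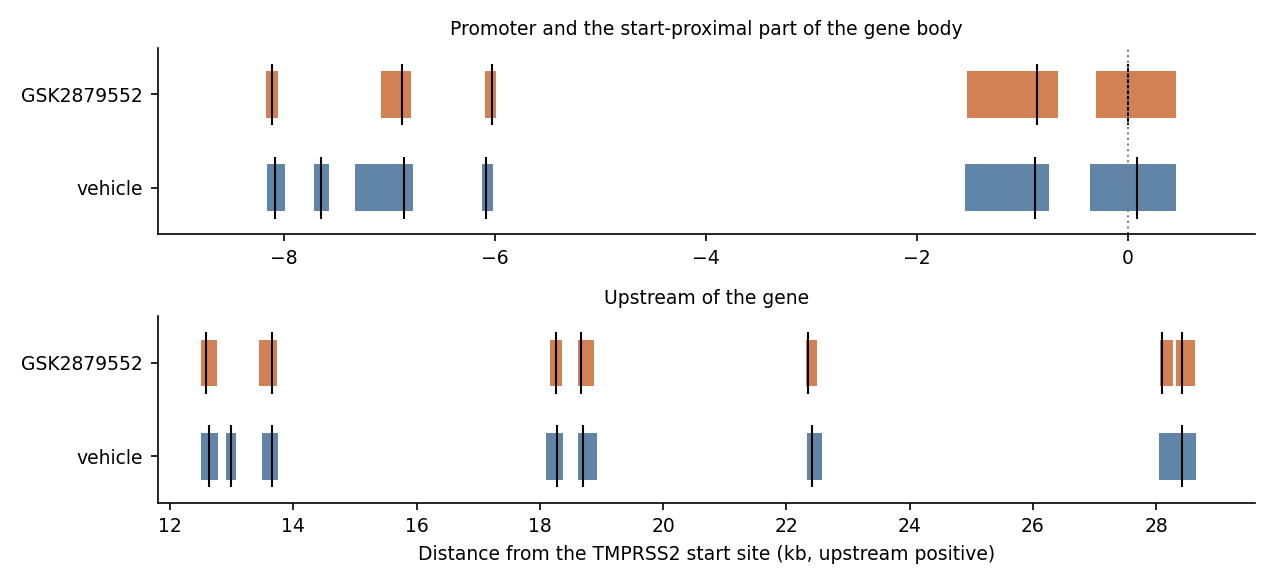
Extent of each listed region (bars) and its summit (black ticks) by distance from the TMPRSS2 start site in kb (horizontal axis, upstream positive), GSK2879552 above vehicle in each panel, for the promoter side of the gene and for 12 to 29 kb upstream. At 28.4 kb there are regions of 203 and 314 bp with GSK2879552 and 1 region of 597 bp with vehicle, and the regions at 13.0 kb upstream and 7.7 kb inside the gene appear with vehicle only.

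The most distal upstream group, from 52 to 76 kb, included the region with the highest fold over background in the locus. At 75.3 kb, the region 42955270 to 42955554 had 54 tags with GSK2879552 (40.6 to 70.5). In vehicle cells 42955233 to 42955559 had 64 tags (49.3 to 81.7). The authors' fold was 12.6 in the GSK2879552 list and 15.5 in the vehicle list, where the promoter had 6.17 and 6.23. By −log10 p this region ranked at the 96.0th percentile of its list with GSK2879552 and at the 96.7th with vehicle, above the promoter at 91.4 and 89.1. Both measures are relative to the local background, 3.35 and 3.20 tags here against 10.50 and 12.48 at the promoter. By summit tags alone the promoter was the higher, with 70 and 83. The scaled ratio at 75.3 kb was 0.718 (0.490 to 1.05), close to the 0.717 of the promoter.

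The other regions of this distal group were weaker. At 60.8 kb there were 25 tags with GSK2879552 and 36 with vehicle, a scaled ratio of 0.591 (0.340 to 1.01). At 58.6 kb the numbers were nearly equal, 24 with GSK2879552 and 23 with vehicle, and the scaled ratio of 0.888 (0.480 to 1.65) was the second highest of the locus. With GSK2879552 no region was listed between those at 28.4 and 58.6 kb, a stretch of 30.2 kb between summits. The same stretch held a vehicle region at 52.4 kb with 24 tags.

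Inside the gene beyond the promoter, 4 regions were listed with GSK2879552 and 7 with vehicle. Of these, 3 with GSK2879552 and 4 with vehicle lay between 6.0 and 8.1 kb from the start site. The widest of them, at 6.9 kb, had 31 tags over 278 bp with GSK2879552 (42873007 to 42873284) and 47 tags over 547 bp with vehicle (42872759 to 42873305). Its scaled ratio was 0.561 (0.345 to 0.902), and its width ratio of 0.508 was the lowest of the locus. At 8.1 kb there were 24 and 34 tags with a scaled ratio of 0.600 (0.341 to 1.04).

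The highest scaled ratio of the locus was also in the gene, at 6.1 kb from the start site. There the GSK2879552 library had 32 tags over a background of 8.56 and the vehicle library 29 tags over 10.22, a scaled ratio of 0.939 (0.550 to 1.61). The summits of this pair were 60 bp apart. Toward the 3′ end, at 27.9 kb, 17 tags with GSK2879552 and 26 with vehicle gave 0.556 (0.283 to 1.06). Summed by position, scaled ratios were 0.704 (0.545 to 0.907) for the 2 promoter pairs and 0.650 (0.499 to 0.846) for the 4 other pairs in the gene. They were 0.652 (0.545 to 0.779) for the 8 upstream pairs and 0.649 (0.497 to 0.845) for the 3 pairs downstream of the gene. Each of these intervals contained the other sums, so no position class was set apart at this depth.

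Downstream of the 3′ end of TMPRSS2, on the side of MX1, 4 regions were listed with GSK2879552 and 3 with vehicle. The farthest, at 87.5 kb by the vehicle summit, was among the widest of the locus, 701 bp with GSK2879552 (42792126 to 42792826) and 674 bp with vehicle (42792133 to 42792806). It had 34 tags with GSK2879552 and 50 with vehicle, a scaled ratio of 0.578 (0.363 to 0.912). At 47.4 kb, just beyond the 3′ end, the numbers were closer, 44 and 49 tags, with a scaled ratio of 0.764 (0.497 to 1.17). The region at 74.4 kb had 25 and 36 tags, a scaled ratio of 0.591 (0.340 to 1.01). Which of these regions belong to MX1 was not analysed here, since no hg19 annotation of that gene was used.

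**Figure D3:**
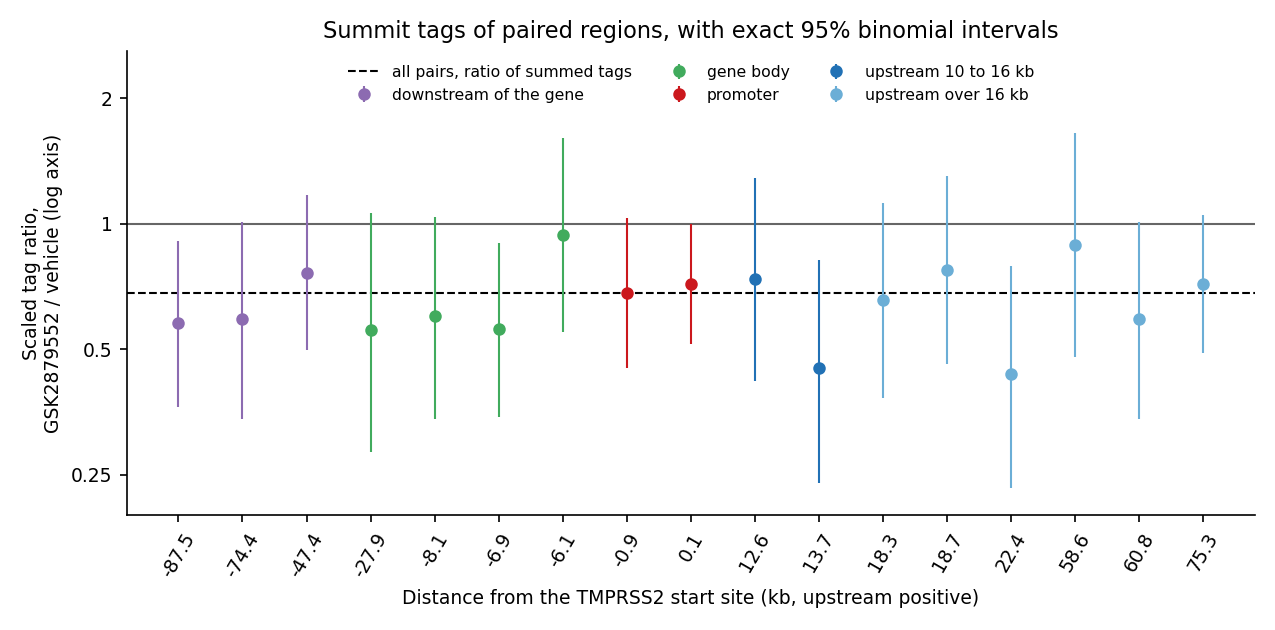
Scaled ratio of summit tags, GSK2879552 over vehicle (vertical log axis), for the 17 paired regions in order of distance from the TMPRSS2 start site in kb (horizontal axis, upstream positive), with exact 95% binomial intervals. All 17 points lie below 1, from 0.437 to 0.939, and every interval crosses the dashed line at 0.683, the ratio over all pairs of the series.

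Across the locus, 17 regions overlapped exactly 1 region of the other list. Of these pairs, 17 of 17 had a scaled ratio below 1, where 94.2% of all 110134 pairs did. Before scaling, 15 of 17 had fewer tags with GSK2879552, against 83.3% of all pairs. The median was 27 tags with GSK2879552 and 35 with vehicle, while it was 23 and 31 over all pairs. The median scaled log2 ratio was -0.61 (interquartile range -0.79 to -0.44) at the locus and -0.56 (-0.75 to -0.36) over all pairs. Summed tags, 545 with GSK2879552 against 701 with vehicle, gave a scaled ratio of 0.661 (0.590 to 0.741), an interval that included the 0.683 of all pairs.

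A scaled ratio below 1/1.5 was found in 9 of 17 pairs, or 52.9%, beside 45.5% of all pairs. None of the 17 was above 1.5, where 0.172% of all pairs were. The interval lay below 1 in 5 pairs, beside 26.8% of all pairs. These were the promoter, the regions at 13.7 and 22.4 kb upstream, the region at 6.9 kb in the gene and the region at 87.5 kb downstream of the start site. Without scaling, 2 pairs, those at 13.7 and 22.4 kb upstream, had an interval below 1, where 5.48% of all pairs did. The interval included 0.683 in 17 of 17 pairs, as in 99.1% of all pairs. So no paired region of the locus was shown to differ from the series as a whole. Regions of 1 list only and the stretch split in 1 list were not part of this comparison.

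**Figure D4:**
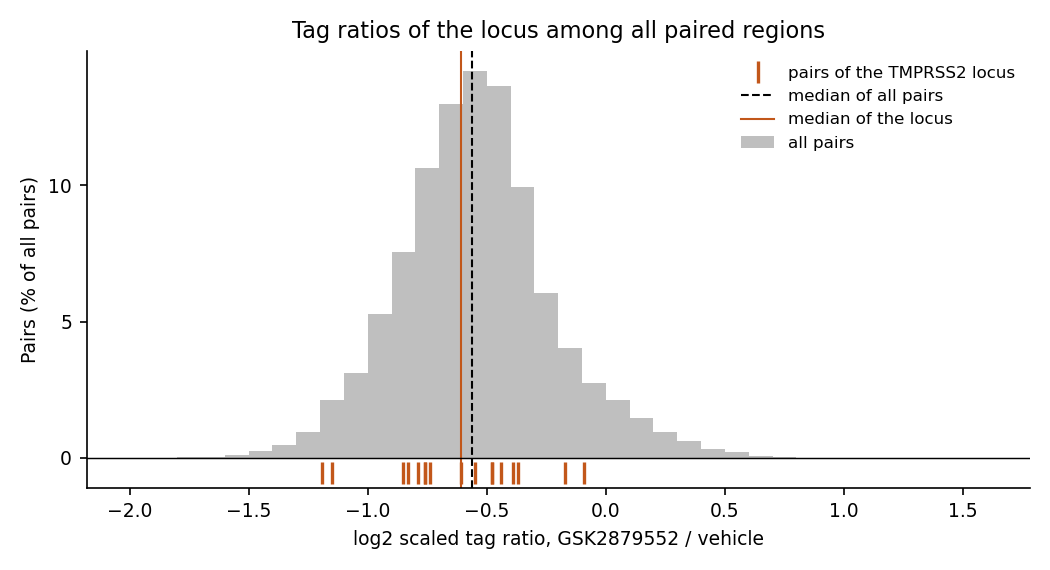
Distribution of the scaled log2 ratio of summit tags, GSK2879552 over vehicle (horizontal axis), as the percentage of all 110134 pairs (vertical axis, grey bars), with the 17 pairs of the TMPRSS2 locus as orange ticks below the bars. The locus median of -0.61 (orange line) is next to the median of all pairs at -0.56 (dashed line), and the ticks spread over the middle of the distribution.

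By tags, the order of the levels began alike in both lists and could not be resolved further down. After the promoter came the 75.3 kb region, at 0.771 of the promoter tags both with GSK2879552 (0.531 to 1.12) and with vehicle (0.548 to 1.08). The 0.9 kb region came next with GSK2879552, at 0.643 of the promoter (0.432 to 0.948). With vehicle the 0.9 kb and 28.4 kb regions shared that place, at 0.675 (0.472 to 0.958). So by summit tags the promoter stood above these regions beyond counting error, and not above the one at 75.3 kb. The promoter was picked as the region with most tags, and the intervals do not allow for that choice. Summit tags include the background, 12.48 at the vehicle promoter and 4.59 at the vehicle 28.4 kb region. By fold over background the vehicle 28.4 kb region was the higher, 10.2 against 6.23. Its −log10 p was 40.8, against 39.8 at the promoter. No neighbours in the order differed beyond counting error, in 21 of 21 steps with GSK2879552 and 24 of 24 with vehicle.

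Regions listed under 1 condition only had at most 20 tags at the summit with GSK2879552 and at most 29 with vehicle. Of the GSK2879552 regions 19 of 22 overlapped a vehicle region, a share of 86.4% (exact Clopper-Pearson interval 65.1 to 97.1) beside 76.5% over the whole list. Of the vehicle regions 18 of 25 overlapped a GSK2879552 region, a share of 72.0% (50.6 to 87.9) beside 61.5%. Both shares of the whole lists lay inside the intervals of the locus.

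The 3 GSK2879552-only regions had 12 to 20 tags. They lay 73.9 kb upstream with 20 tags (42953909 to 42954027), 72.8 kb upstream with 16 tags (42952823 to 42952993), and 67.0 kb downstream of the start site with 12 tags (42812866 to 42813125). The first and the second were 1206 and 409 bp from the nearest vehicle region. The 7 vehicle-only regions had 15 to 29 tags. The strongest lay 7.7 kb inside the gene with 29 tags (42872365 to 42872513), and the nearest GSK2879552 region was 343 bp away. Those at 52.4 kb (42932385 to 42932536, 24 tags) and 60.5 kb (42940552 to 42940747, 23 tags) upstream were 6070 and 86 bp from the nearest GSK2879552 region.

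The other vehicle-only regions lay at 40.7 kb and 29.8 kb in the gene with 21 and 17 tags, and at 13.0 kb and 72.3 kb upstream with 15 and 17 tags. Multiplied by the depth quotient and the ratio of all pairs, the vehicle tags of all 7 vehicle-only regions correspond to 12.0 to 23.3 tags with GSK2879552. That ratio comes only from regions listed in both libraries. The weakest listed GSK2879552 summit had 12 tags in the locus and 9 tags in its whole list. Listing also depends on the local background, so these numbers are no common floor. The 12-tag summit stood on 3.26 tags, and the vehicle-only regions stood on 3.21 to 7.25 tags with vehicle. How many tags the GSK2879552 library had at the vehicle-only regions is not given by its list, so whether they were open in that library is undecided.

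Listed regions covered 6564 bp of the window with GSK2879552 and 7772 bp with vehicle, which is 15.5% less, where the whole lists differed by 24.9%. In pairs, the GSK2879552 region was the narrower in 12 of 17 cases, beside 81.2% of all pairs, with a median width ratio of 0.878 against 0.825. The largest difference in listed width was in the gene body, with 786 bp with GSK2879552 and 1468 bp with vehicle. It includes 3 vehicle-only regions of 121, 153 and 149 bp. In this class 3 of 7 vehicle regions had no GSK2879552 partner, beside 38.5% of all vehicle regions. The promoter class had 1618 and 1610 bp. Paired summits were a median of 20 bp apart (2 to 87 bp), beside 17 bp over all pairs.

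The local background, which the caller counts over the surroundings of a summit, gave a readout of the wider stretch around each region. The series has no control library, so this count takes in tags of the region itself and of its neighbours. It is therefore not independent of the summit tags. All 22 GSK2879552 and all 25 vehicle regions stood above the genome-wide level, as did 61.6% and 59.7% of the whole lists. The median was 4.53 tags with GSK2879552 and 4.79 with vehicle. At the promoter the background was 3.87 times the genome-wide level with GSK2879552 and 5.40 times with vehicle. At 75.3 kb upstream it was 1.23 and 1.39 times that level.

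Scaled for depth, the background ratio of GSK2879552 to vehicle went from 0.703 to 0.951 over the pairs. It was 0.716 at the promoter and 0.703 to 0.712 at the 3 pairs between 6.1 and 8.1 kb inside the gene. At the enhancer pairs it was 0.828 (12.6 kb) and 0.826 (13.7 kb), and at 47.4 kb downstream of the start site it was 0.951. The locus median was 0.809, beside 0.892 over all pairs that stood above the genome-wide level in both lists. These values have no interval, because neighbouring regions share the tags that make up their background.

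**Figure D5:**
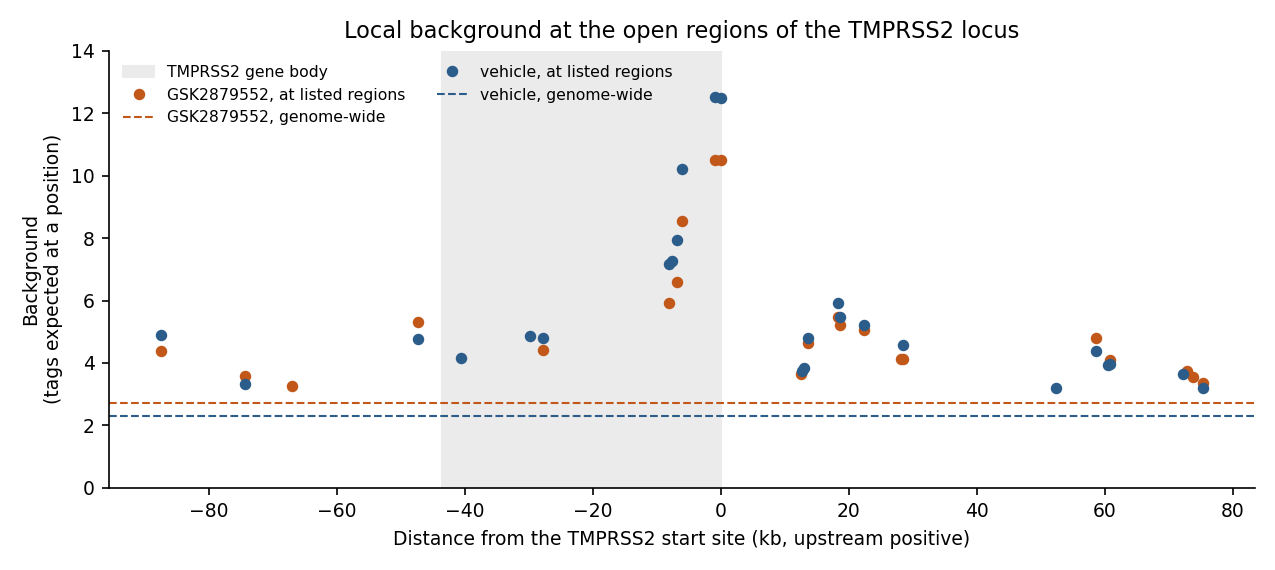
Local background in tags expected at a position (vertical axis) at each listed region by distance from the TMPRSS2 start site in kb (horizontal axis, upstream positive), for GSK2879552 and vehicle, with the genome-wide level of each list as a dashed line. The background peaks around the start of the gene, at 10.50 tags with GSK2879552 (promoter) and 12.51 with vehicle (0.9 kb inside the gene). It stays above the genome-wide levels of 2.72 and 2.31 at all regions.

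The number of listed regions in the window was above the upper quartile of stretches of its size with at least 1 listed region. The 15927 adjacent tiles of 180 kb that held such a region, with empty tiles left out, had a median of 9 regions with GSK2879552 (interquartile range 5 to 14) and 12 with vehicle (7 to 16), where the locus had 22 and 25. The flanking 180 kb on the 3′ side of TMPRSS2 held 15 and 20 regions, and that on the promoter side 12 and 18. Scaled ratios of summed tags in these flanks were 0.673 (0.578 to 0.784) and 0.685 (0.602 to 0.778), so they did not set the TMPRSS2 window apart from its surroundings. Over all of chromosome 21, 1577 pairs gave 0.696 (0.688 to 0.705).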

How the data were processed

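ATAC-seq peak lists of LNCaP cells were analysed, 1 per condition. The labels of both lanes name the same list, so lanes were taken as pooled. Per the submitters' processing notes, the tools were MACS2 2.1.2, BWA 0.7.2 and SAMtools 0.1.18. Their roles and order are not stated, and the builds are given as GRCh37 and hg19. How reads were trimmed, filtered for duplicates or shifted to the cut site is not stated there. The deposited lists give a score, a fold (ratio of summit tags to background, each with 1 added), a −log10 p, a −log10 q and a summit offset per peak. In all rows but 3, the authors' deposited score equals 10 times the −log10 q, rounded down. Both lists stop near q of 0.05, with a smallest −log10 q of 1.30 and 1.31.

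Fold and −log10 p together fix the tags, a whole number, and their background, within 0.001 of the printed −log10 p in 100% of rows of both lists. The inversion was tested on simulated data. The libraries' genome-wide backgrounds set the depth scale. Peaks were partners at 1 bp of overlap, and pairs when each had 1 partner. Intervals are exact Poisson, binomial or Clopper-Pearson. Gene bounds came with the definition of the locus and were not checked against an hg19 annotation. The position classes, upstream ones included, follow this 1 start site, and other possible starts of the gene were not considered. Genes of the androgen pathway and motifs, which were planned, need hg19 positions or sequence and were not analysed here.

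The locus, its classes and the values given were chosen with earlier results of these data known. Described in full were the promoter, the 10 to 16 kb regions, the 5 strongest vehicle regions, the extreme pairs and the 3 strongest regions of 1 list only. The remaining regions were added after their values were seen. Python 3.11.15, NumPy 2.4.6, pandas 2.3.3, SciPy 1.17.1 and Matplotlib 3.10.9 were used.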

Additional observations from a re-analysis of the deposited data

How the results depend on the processing

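No paired analysis was possible because each condition had 1 library whose lanes are technical replicates, and for the same reason no replicate could be left out. Over 9 alternatives, 27 of 32 recomputed values stayed within the interval of the value reported, or within 1.5 times of a count, and 0 reversed. For the median log2 ratio, the interval used was -0.772 to -0.444. It is the width of the interval of the summed ratio, on the log2 scale, set around the median, and not the interquartile range. Restricting the window to the gene and 20 kb to either side left 11 GSK2879552 and 15 vehicle regions, by construction, and the share of GSK2879552 regions with a vehicle partner became 100%. With no scaling for depth, the median log2 ratio was -0.37 and the ratio of summed tags 0.777 (0.694 to 0.871), where all pairs gave -0.32 and 0.803. Across the other alternatives for tags and pairing, the summed ratio went from 0.641 with the background subtracted to 0.685 for pairs with at least 60 tags, and the median log2 ratio from -0.67 to -0.55. The 13.7 kb region, with 18 GSK2879552 tags, shows what depth limits, since its interval runs from 0.239 to 0.820.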
